A study of Mus musculus with 204 samples.

Results

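Candidate intrinsic sensory neurons were compared with other neurons among single cells from the mouse distal colon. A candidate was a neuron with Calcb, Nmu or Nog at a log2(RPKM + 1) of 3 or more, and another neuron had all 3 below 1. A cell counted as a neuron where at least 3 of Elavl3, Elavl4, Snap25, Stmn2 and Syt1, which neurons of most kinds express, were at 2 or more. RPKM scales the reads of a gene by its length and by the depth of the cell, so levels of different genes are set per length. Of the 66, 66 and 72 cells on plates 1, 2 and 3, 149 in all were neurons and 32 of these were candidates. The 12 neurons between the thresholds and the 55 cells that were not neurons were left out of the comparison.

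Intrinsic sensory neurons have their cell bodies in the gut wall, respond to stretch and to chemical stimuli, and start local reflexes without input from the brain or spinal cord. In the mouse they are commonly recognised by the peptide CGRP, by neuromedin U and by noggin. Calcb encodes the beta form of CGRP, Nmu encodes the neuromedin U precursor, and Nog encodes noggin, a secreted antagonist of bone morphogenetic proteins. Extrinsic sensory neurons of the dorsal root and vagal ganglia also make CGRP, mostly from the neighbouring paralog Calca, and their axons, not their cell bodies, lie in the gut.

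The cells came from VGLUT2-tdTomato mice, in which a red reporter marks cells by Slc17a6, the gene for a vesicular glutamate transporter. Muscle layers that held the myenteric plexus, the nerve network between them, were enzymatically separated into cells and kept in culture overnight, and red cells were then picked by hand. The candidates were 16 cells of plate 1, 8 of plate 2 and 8 of plate 3, and the other neurons were 33, 30 and 42 cells of the same plates. All groups share the reporter, the tissue and the culture step, and the labels name no animal, sex, age, strain or treatment. Each plate was therefore taken as 1 sample, cells were not used as replicates, and no test was made. A gene was called higher where the mean log2(RPKM + 1) of candidates exceeded that of other neurons by 1 or more on each of the 3 plates, and called lower where it was below it by 1 or more on each. Shares are given with 95% intervals by the exact Clopper-Pearson method, which take in counting error alone.

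Candidates made up 21.5% of neurons (15.2 to 28.9%), with 30.2%, 18.6% and 15.1% on plates 1, 2 and 3. Calcb reached 3 in 20 of 149 neurons, Nog in 11 and Nmu in 8. Among the 55 cells that were not neurons, Calcb reached 3 in 2, Nog in 1 and Nmu in 0. In the neurons that reached 3, Calcb ranged from 3.64 to 9.71 with a median of 5.68, Nmu from 3.04 to 7.58 with a median of 4.12, and Nog from 3.36 to 6.67 with a median of 4.57. The values next to the threshold were close together: the highest marker was at 3.26 and 3.38 in the candidates just inside and at 2.98 and 2.94 in the neurons just outside. These levels chose the cells and are given only as a description.

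The 3 markers overlapped in part. Calcb alone was found in 14 neurons, Nog alone in 10 and Nmu alone in 2. Calcb and Nmu without Nog were found together in 5 neurons, and 1 neuron, cell 27 of plate 1, had all 3. No neuron had Nog with only 1 of the other markers. Thus 6 of 8 Nmu neurons also had Calcb (75%, 34.9 to 96.8%), whereas 1 of 11 Nog neurons did (9.09%, 0.23 to 41.3%). If the shares of Calcb and Nmu were multiplied, 1.07 neurons with both would be counted, against 6 observed, and for Calcb with Nog the product was 1.48, against 1 observed. The 6 neurons with Calcb and Nmu were 3 on plate 1 and 3 on plate 3, and plate 2 had no Nmu neuron among 43, which allows a share of up to 8.22%. At this threshold the set was therefore mostly Calcb cells, some of them with Nmu, beside Nog cells that mostly carried neither. The split of Calcb from Nog depends on the threshold, because 6 of 20 Calcb neurons had Nog at 1 or more. Nog was just below 3 in some of them, at 2.72 and 2.80 in cells 20 and 50 of plate 1. In cell 22 of plate 2 it was at 2.86. Of 11 Nog neurons, 1 had Calcb at 1 or more.

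**Figure D1:**
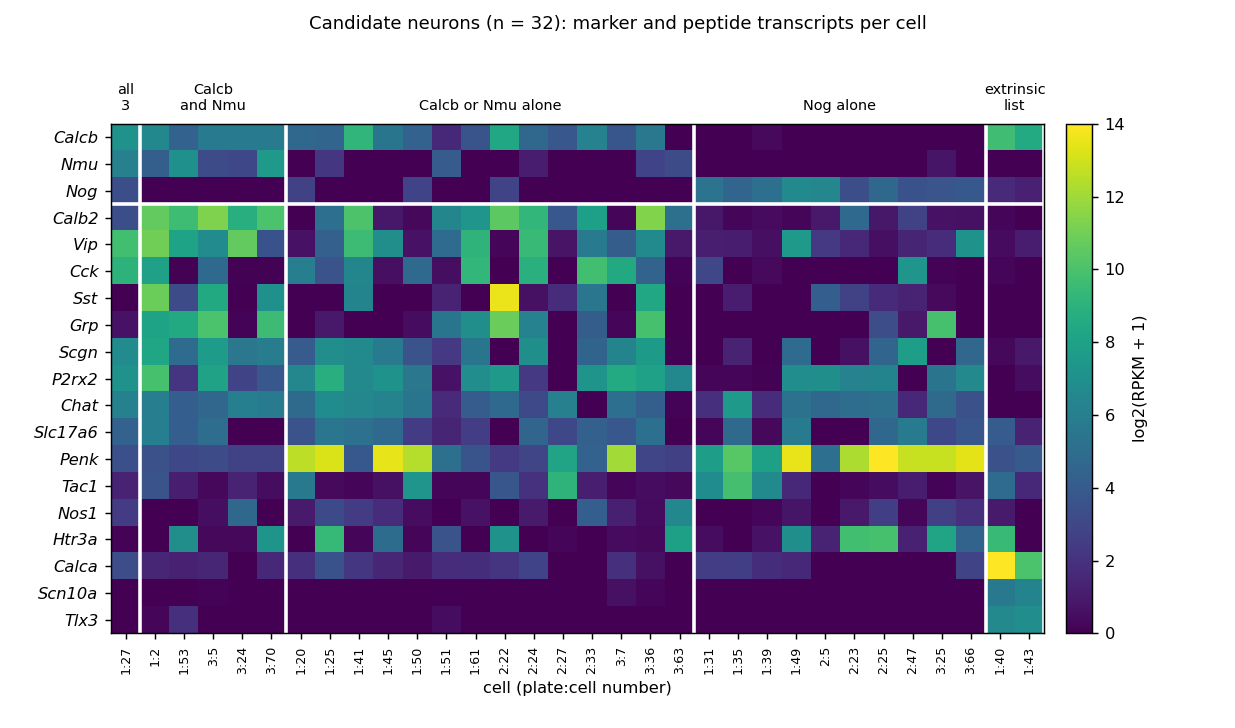
Levels, as log2(RPKM + 1), of 19 transcripts in each of the 32 candidate neurons, with cells in columns named by plate and cell number and grouped by the markers they carry. The 3 rows above the white line chose the cells. The 6 cells with Calcb and Nmu have Penk at 3.49 or less, 7 of 10 Nog cells have Penk at 10 or more, and 2 cells of plate 1 hold Scn10a and Tlx3.

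Some cells stood apart. Cells 40 and 43 of plate 1 had 8 and 7 of 12 listed extrinsic sensory genes at 3 or more, and every other candidate had at most 3. Scn10a, the sodium channel Nav1.8 of pain-sensing neurons, was at 5.68 in cell 40 and at 6.29 in cell 43. Both held Tlx3, a transcription factor of such neurons, at 6.60 and 6.86, and Chat was 0 in both. Calca was at 14.14 and 10.03 in these cells and at 3.55 or less in every other candidate. Calcb was at 9.71 and 8.54 in them, so by these genes both go against the name of the class. Calcb and Calca lie on chromosome 7 in mm10, at 114718643 to 114723365 and 114631478 to 114636357. They are paralogs, and how reads were shared between them is uncertain.

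Candidates also held 3 pairs of cells that were nearly alike over all transcripts: cells 5 and 36 of plate 3 had a correlation of 0.980 over 14798 genes, cells 31 and 39 of plate 1 one of 0.974, and cells 20 and 50 of plate 1 one of 0.961. The median over 3659 pairs of neurons of 1 plate was 0.619. Of 20706 pairs of cells, 7 reached 0.945 or more and the next was at 0.896. The most alike pair, at 0.985, crossed plates. It joined cell 19 of plate 2, an other neuron, and cell 57 of plate 3, a neuron between the thresholds. In the deposited column names, cells of plate 3 carry the same plate suffix as those of plate 2, and their index numbers run on from plate 2. Plate 1 has a suffix of its own. Whether plates 2 and 3 share cells or reads was not tested, so they may not be fully separate samples. Cells 5 and 36 also held the same rare peptides, with Grp at 10.04 and 9.94 and Sst at 8.50 and 8.32. Cells 31 and 39, both Nog cells, had 0 of 19 listed intrinsic sensory genes at 3, and Chat at 1.96 and 1.77. The smooth muscle gene Acta2 was at 8.65 and 8.57 in them, against 6.01 to 6.53 in the other candidate pairs. What made these pairs alike was not tested. In turn, 1 cell of each pair, the 2 cells with extrinsic sensory genes, or both were left out below.

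Across 14937 genes with a mean of at least 0.5 over the compared neurons, 18 were called higher in candidates (0.121%) and 7 lower (0.0469%). Single plates gave far more: 5.24% of genes were higher by 1 or more on plate 1, 3.94% on plate 2 and 19.6% on plate 3, and 1.42%, 12.8% and 0.636% were lower. Over all genes, the median differences of plates 1, 2 and 3 were 0.08, -0.25 and 0.43. Depth moved the same way, with median reads of 4808125, 2494080 and 8996967 in candidates of plates 1, 2 and 3, against 3433076, 4660777 and 5118952 in other neurons. With every cell thinned to 450000 reads, 20 genes were called higher, 17 of them among the 18, and 8 lower, the 7 among them. Without 1 cell of each pair the counts were 17 and 6, without the 2 cells with extrinsic sensory genes 23 and 6, and without both 24 and 4. Without both, 17 of the 18 higher and 3 of the 7 lower genes were shared. The scale mattered as well: with the log2 ratio of mean RPKM in place of the difference of means, 7 of the 18 higher and 4 of the 7 lower genes were shared, and with 5 RPKM added before the log 6 and 2 were. Relative to the median of all genes on each plate, 12 of the 18 and 6 of the 7 were shared.

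The genes called higher were led by Calb2, which encodes the calcium-binding protein calretinin. On plate 1, Calb2 ranged from 0 to 10.65 with a median of 0.89 in candidates and from 0 to 10.14 with a median of 0.37 in other neurons. On plate 2 it ranged from 0.89 to 10.47 with a median of 4.29 in candidates and from 0 to 11.22 with a median of 0.92 in other neurons. On plate 3 it ranged from 0.25 to 11.33 with a median of 7.02 in candidates and from 0 to 11.21 with a median of 0.96 in other neurons. The classes overlapped fully in range, and the difference lay in how many cells were high. Calb2 reached 3 in 17 of 32 candidates (53.1%, 34.7 to 70.9%) and in 23 other neurons (21.9%, 14.4 to 31.0%). Mean levels differed by 2.56, 2.48 and 3.04 on plates 1, 2 and 3. With the log2 ratio of mean RPKM its smallest plate value was 0.79 and it was not called. The gene lies on chromosome 8 in mm10, at 110137502 to 110168210.

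A second calcium-binding protein, secretagogin, encoded by Scgn, followed the same pattern. Scgn reached 3 in 20 of 32 candidates (62.5%) and in 33 other neurons (31.4%), and mean levels differed by 1.18, 1.59 and 3.19. Its call was less firm, because leaving out any 1 of 5 cells ended it, at lowest 0.89 without cell 2 of plate 1. With the ratio of mean RPKM its smallest plate value was 0.48, and among neurons with Chat the smallest difference was -0.18. Calb1, encoding calbindin, was higher by 0.33, 1.52 and 0.98 and was not called. Of 13 calcium-binding protein genes kept from a list of 14, which does not hold Scgn, Calb2 alone was called, beside 0.121% of all genes called higher.

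P2rx2, which encodes a subunit of ATP-gated cation channels, was higher by 1.5, 2.43 and 3.29. Its median on plates 1, 2 and 3 was 6.03, 6.24 and 6.57 in candidates and 2.51, 1.47 and 2.96 in other neurons. On plate 3 the lowest candidate was at 2.88, and on plates 1 and 2 the lowest was at 0, as it was in other neurons of all plates. P2rx2 reached 3 in 21 of 32 candidates (65.6%) and 50 other neurons (47.6%). It was the only gene called among 11 kept from a list of 23 serotonin and purine receptors, beside 0.121% of all genes called higher. Htr3a, the 5-HT3 receptor subunit, differed by -0.21, -0.03 and -0.44, and P2rx3, a partner subunit of P2rx2 in sensory ganglia, by 0.04, 0.05 and 0.02.

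Peptide precursors made up the largest group of named genes. Cck, Sst, Grp and Pdyn, which encode cholecystokinin, somatostatin, gastrin-releasing peptide and the precursor of dynorphins, were higher, and Penk, the precursor of enkephalins, was lower, among 12 kept of 21 peptide genes. Of all genes, 0.121% were called higher and 0.0469% lower. The median difference of the 12 was 0.73, 0.10 and 0.92 by plate. Each of the 4 higher peptides was carried by a minority of candidates. As a background, among the 55 cells that were not neurons Cck reached 3 in 4, Sst in 6, Grp in 1, Pdyn in 1, Calb2 in 4, P2rx2 in 1, Galr1 in 0 and Vip in 0. Cck reached 3 in 13 of 32 candidates (40.6%, 23.7 to 59.4%) and 9 other neurons (8.57%, 3.99 to 15.6%). By plate these were 7 of 16, 3 of 8 and 3 of 8 candidates and 2 of 33, 2 of 30 and 5 of 42 other neurons. Mean Cck differed by 2.30, 3.00 and 1.35.

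Grp reached 3 in 12 of 32 candidates (37.5%) and 8 other neurons (7.62%), with mean differences of 1.14, 2.48 and 3.97. Sst reached 3 in 9 of 32 candidates (28.1%) and 8 other neurons (7.62%), with differences of 1.33, 2.15 and 2.57. Pdyn reached 3 in 10 of 32 candidates (31.2%) and 9 other neurons (8.57%), with differences of 1.68, 1.75 and 1.48. On plate 2, Sst was above 0 in every candidate, and its median in plate 2 cells that were not neurons was 1.72, against 0 in those of plates 1 and 3. The highest Sst, 13.60, was in a candidate of plate 2. Single cells ended these calls: Cck was at 0.45 on its smallest plate without cell 7 of plate 3 and was also no longer called without cell 5 of that plate. Pdyn was at 0.45 without cell 24 of plate 3, Sst at 0.70 without cell 2 of plate 1 and also lost without cell 22 of plate 2, and Grp at 0.70 without cell 53 of plate 1, the weakest of 4 such cells. Cck at 0.89 and Grp at 0.70 were not called with the ratio of mean RPKM, nor was Cck, at 0.92, relative to the median of all genes on each plate.

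Penk fell by 4.21 on plate 1, 1.11 on plate 2 and 2.71 on plate 3 in candidates. Its median was 6.51, 6.62 and 3.1 in candidates of plates 1, 2 and 3 and 12.60, 11.18 and 11.86 in other neurons. Cells formed a high and a low range in both classes. Penk was at 10 or more in 12 of 32 candidates, 37.5% on each plate, and in 68 other neurons, 81.8%, 53.3% and 59.5% by plate. No neuron was below 2.07, and cells that were not neurons had medians of 4.08, 2.99 and 3.66 on plates 1, 2 and 3, so a neuron near 3 was at the level of cells that are not neurons. The plate 2 difference was the weakest: leaving out any 1 of 12 cells ended the call, the lowest value being -0.34 without cell 22. On plate 2 the log2 ratio of mean RPKM was 0.27, with the sign turned. Relative to the median of all genes on each plate Penk was at -0.86 and was also not called.

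**Figure D2:**
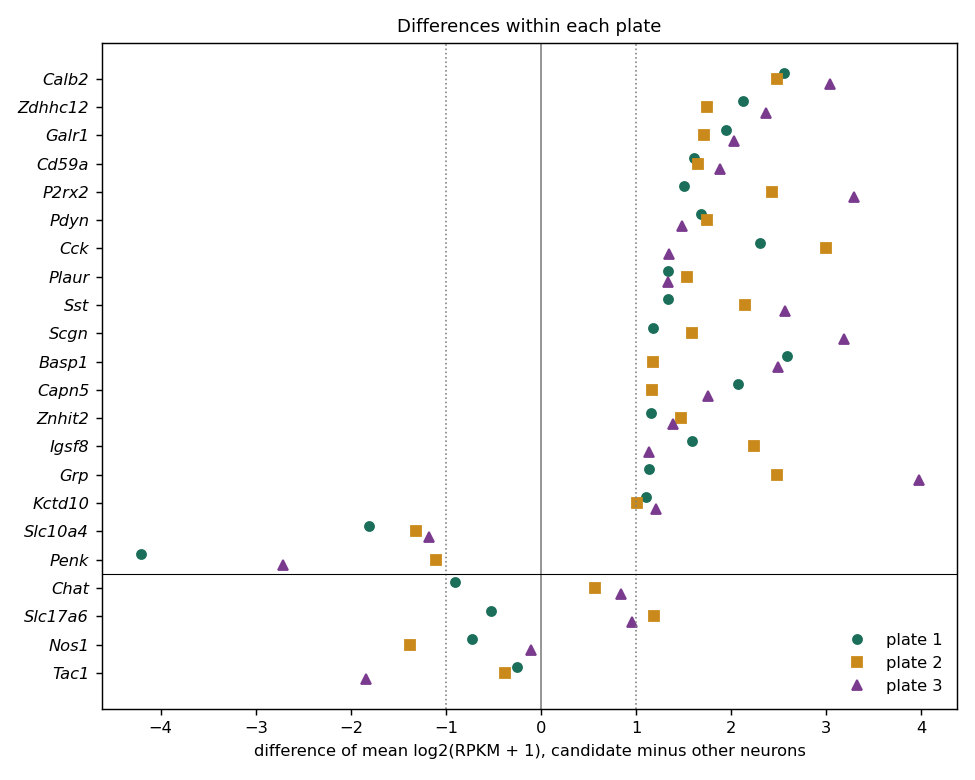
Difference of mean log2(RPKM + 1), candidate minus other neurons, for each plate (16, 8 and 8 candidates and 33, 30 and 42 other neurons). Dotted lines mark 1 and -1, and the line across separates 18 called genes, all on 1 side of a dotted line, from 4 transmitter-related genes that were not called.

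A further receptor gene and several genes of no neuronal list were also called. Galr1, a receptor for galanin, was higher by 1.95, 1.71 and 2.03 and reached 3 in 12 of 32 candidates (37.5%) and 9 other neurons (8.57%). Without cell 24 of plate 2 its smallest difference was 0.77. Zdhhc12, which encodes a protein palmitoyltransferase, was higher by 2.12, 1.74 and 2.37. It reached 3 in 27 of 32 candidates (84.4%) and 44 other neurons (41.9%). Its smallest plate difference stayed at 1 or more in 28 of 28 alternative settings. Some of these settings could not lower that difference, such as leaving out a plate or a call size of 1.5. Cd59a, which encodes an inhibitor of the complement membrane attack complex, was higher by 1.61, 1.65 and 1.88 and reached 3 in 24 of 32 candidates (75%) and 39 other neurons (37.1%). With the ratio of mean RPKM Cd59a was at 0.69 and was not called. Both were found in most candidates, whereas each peptide was found in a minority.

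Basp1, a membrane protein of growth cones, was higher by 2.59, 1.18 and 2.49. Capn5, a calpain-family protease, was higher by 2.07, 1.17 and 1.76, and Plaur, the urokinase receptor, by 1.33, 1.54 and 1.34. Igsf8, an immunoglobulin-superfamily membrane protein, Znhit2 and Kctd10 were higher by 1.01 or more on each plate. Leaving out single cells ended the calls of Basp1, Capn5, Plaur, Igsf8 and Kctd10, at weakest with 0.74 without cell 22, 0.82 without cell 25, 0.72 without cell 5 and, for Kctd10, 0.71 without cell 24 of plate 2, and for Igsf8 with 0.80 without cell 36 of plate 3. Plaur and Igsf8 were no longer called without 1 cell of each alike pair, and the ratio of mean RPKM turned the sign of Plaur. With that ratio Capn5 (0.93), Znhit2 (0.23), Igsf8 (0.43) and Kctd10 (0.32) were not called. Relative to the median of all genes, Plaur (0.92), Znhit2 (0.96), Igsf8 (0.72) and Kctd10 (0.79) were not called either. Anxa1, the phospholipid-binding protein annexin A1, was named after its values were seen. It was higher by 3.54, 1.44 and 2.09 and reached 3 in 15 of 32 candidates (46.9%) and 14 other neurons (13.3%). Leaving out cell 5 or 24 of plate 2 or cell 5 or 36 of plate 3 ended its call, at weakest 0.56 without cell 24 of plate 2.

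Slc10a4, which encodes a transporter-like protein of synaptic vesicles in cholinergic and monoaminergic neurons, fell by 1.81, 1.31 and 1.18 in candidates of plates 1, 2 and 3. It reached 3 in 18 of 32 candidates (56.2%) and 83 other neurons (79%). Without 1 cell of each alike pair it was no longer called, with the ratio of mean RPKM it was at -0.19, and leaving out any 1 of 7 cells ended the call, at weakest -0.71 without cell 47 of plate 2. Among the other lower genes, Gm43318, Gm43048 and Gm42769, named after their values were seen, are uncharacterised transcripts that lie on the minus strand of chromosome 5 (mm10) within the span of Kcnip4, at 48389502 to 49524907. Kcnip4, a potassium channel interacting protein, was itself at -0.62, -1.49 and -0.20 and was not called. Reads of these entries and of Kcnip4 introns cannot be told apart.

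**Figure D3:**
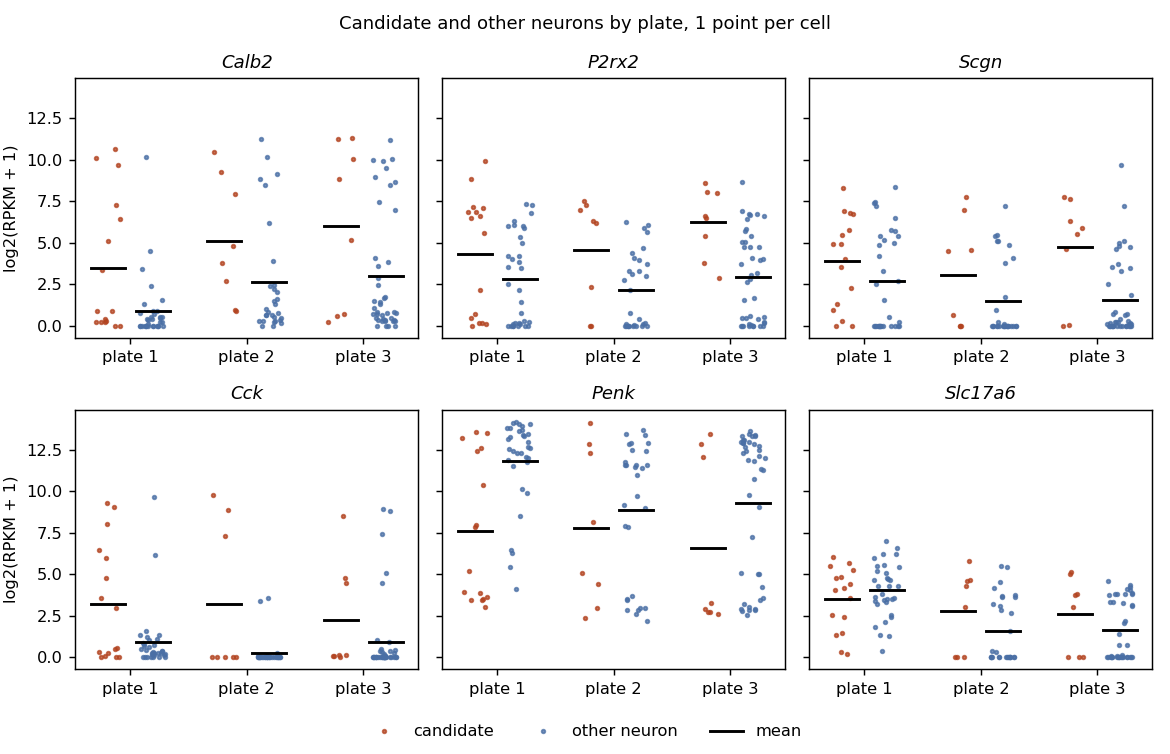
Levels of 6 genes as log2(RPKM + 1), 1 point per cell, with candidates left of other neurons on each plate and a bar at the mean. Points of both classes span similar ranges, and Slc17a6 means cross between plate 1 (candidates 3.54, other neurons 4.06) and plate 2 (candidates 2.81, other neurons 1.62).

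The main transmitter genes were not called. Chat, the acetylcholine-synthesising enzyme, reached 3 in 24 of 32 candidates (75%, 56.6 to 88.5%) and 72 other neurons (68.6%, 58.8 to 77.3%). By plate these were 68.8%, 75% and 87.5% of candidates and 90.9%, 56.7% and 59.5% of other neurons. Mean Chat differed by -0.91, 0.57 and 0.84, so the sign on plate 1 was opposite to that on plates 2 and 3. Slc17a6, on which the reporter is based, reached 3 in 62.5% of candidates on each plate and in 78.8%, 33.3% and 38.1% of other neurons on plates 1, 2 and 3. Its mean differed by -0.53, 1.19 and 0.96, so the sign on plate 1 was opposite to that on plates 2 and 3. Nos1, the neuronal nitric oxide synthase, reached 3 in 4 of 32 candidates (12.5%, 3.51 to 29.0%) and 31 other neurons (29.5%, 21.0 to 39.2%), with differences of -0.73, -1.38 and -0.11. Tac1, the precursor of substance P, reached 3 in 9 of 32 candidates (28.1%) and 32 other neurons (30.5%), with differences of -0.25, -0.38 and -1.84. By plate its shares were 43.8%, 25% and 0% of candidates and 39.4%, 26.7% and 26.2% of other neurons.

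The list of 19 transcripts linked to intrinsic sensory neurons was partly present. Of 14 kept, 4 were called higher, Calb2, Cck, Sst and Grp, and none lower, beside 0.121% and 0.0469% of all genes. Its median difference was 0.73, 0.52 and 1.21, against 0.08, -0.25 and 0.43 for all genes. A candidate had a median of 5.5 of the 19 at 3 or more, and another neuron a median of 3. Without the 2 cells with extrinsic sensory genes the candidates' median was also 5.5. Most of these transcripts were members that were not called: of the 15, a candidate had a mean of 3.72 ± 1.71 at 3 or more and another neuron 2.92 ± 1.93 (SD over cells). Nefm, a neurofilament subunit, reached 3 in 81.2% of candidates and 78.1% of other neurons, and Adcyap1, the precursor of the peptide PACAP, in 62.5% and 55.2%. Cbln2, a secreted synaptic organiser, reached 3 in 6 of 32 candidates (18.8%) and in 3 other neurons (2.86%), and Vsnl1, a neuronal calcium sensor, in 5 of 32 candidates (15.6%) and 11 other neurons (10.5%).

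Of 26 receptors, binding proteins and targets of CGRP, neuromedin U and bone morphogenetic protein signalling, 16 were kept, with medians of -0.13, -0.14 and 0.37, and none was called. With 0.121% of all genes called higher and 0.0469% lower, a count of 0 in a list of this size is near the background and says nothing about its members. Id1, a transcription regulator induced by bone morphogenetic proteins, was at -1.06, -0.63 and -0.21, and its relative Id3 at 0.25, 0.39 and 0.37. The same holds for the counts of 0 among 14 kept afterhyperpolarisation and pacemaker channels, 13 sodium and calcium channels, 12 mechanosensitive, TRP and acid-sensing channels, 9 glutamate receptors, 8 acetylcholine receptors and 20 transcription factors. Kcnq3, a subunit of the M-type potassium channel, was at -1.04, -1.32 and -0.53, and Chrm2, a muscarinic receptor, at -1.37, -1.61 and -0.41. Avil, encoding the actin-binding protein advillin of sensory neurons, was at 2.77, 0.91 and 2.74, just short of a call on plate 2. In all, 8 of 211 kept genes of the neuronal lists were called, against 18 higher and 7 lower of all 14937. With the filter at a mean of 1 or more, Galr1 was not kept and 7 list genes were called.

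The markers that the candidates carried split the class. The 19 cells with Calcb or Nmu at 3 and Nog below 3 were 9, 4 and 6 cells of plates 1, 2 and 3. The 2 extrinsic-gene cells were left out. The 10 cells with Nog alone were 4, 4 and 2 by plate, and the 4 on plate 1 included the alike cells 31 and 39. The grouping was made after the values were seen, so its values are a description. Penk had a median of 3.65 in the Calcb or Nmu cells, 12.5 in the Nog cells and 11.9 in the other neurons. Penk reached 10 in 5 of 19 Calcb or Nmu cells, 7 of 10 Nog cells and 68 other neurons (64.8%). By plate these were 4 of 9, 0 of 4 and 1 of 6 Calcb or Nmu cells and 2 of 4, 3 of 4 and 2 of 2 Nog cells. Most Nog cells were thus in the Penk range of most other neurons.

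Calretinin and peptides showed the same split. Calb2 reached 3 in 15 of 19 Calcb or Nmu cells, 1 of 10 Nog cells and 23 other neurons (21.9%). Vip, the precursor of vasoactive intestinal peptide, did so in 14 of 19, 2 of 10 and 25.7%, and Galr1 in 10 of 19, 0 of 10 and 8.57%. Counting Calb2, Vip, Cck, Sst and Grp together, 3 or more of the 5 were at 3 in 12 of 19 Calcb or Nmu cells. The same held for 0 of 10 Nog cells and 2 other neurons (1.9%). Calb2, Cck, Sst and Grp had been called against these same other neurons, and Vip was added after its values were seen. The gap to the other neurons therefore follows in part from the choice of genes and is only a description. By plate, 6 of 9, 3 of 4 and 3 of 6 Calcb or Nmu cells had 3 or more, and 0 of 33, 1 of 30 and 1 of 42 other neurons did. Without 1 cell of each alike pair the counts were 11 of 17 Calcb or Nmu cells, 0 of 9 Nog cells and 2 other neurons.

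Other called genes differed between the same cells. Scgn reached 3 in 15 of 19 Calcb or Nmu cells and 4 of 10 Nog cells, with medians of 5.54 and 1.00. Slc10a4 did so in 9 of 19 and 9 of 10, with medians of 1.84 and 5.77, and Pdyn in 8 of 19 and 1 of 10. Further genes were at similar shares in both. P2rx2 reached 3 in 14 of 19 Calcb or Nmu cells and 6 of 10 Nog cells, Zdhhc12 in 16 of 19 and 9 of 10, and Chat in 16 of 19 and 7 of 10. Slc17a6 did so in 12 of 19 and 6 of 10. Avil was more frequent in both, at 12 of 19 and 8 of 10, than in other neurons, at 25.7%. Nog neurons with or without another marker, 5 on plate 1 and 4 on plate 2, were also set against the other neurons of these plates. For 5 genes these plates had opposite signs. Plate 3 had only 2 Nog neurons and was not used for calls. Differences there were 3.84 for Penk, 0.77 for Scgn, 3.95 for Grp, -2.34 for Calb2 and -0.31 for Galr1. On plates 1 and 2, Penk differed by -3.17 and 2.19, Scgn by -0.10 and 1.78, Grp by -0.66 and 0.36, Calb2 by 0.10 and -0.28, and Galr1 by 1.14 and -0.04. Of the 5 Nog neurons on plate 1, cell 27 also carried Calcb and Nmu. Without it the plate 1 differences were -1.87 for Penk, -1.14 for Scgn, -0.81 for Grp, -0.48 for Calb2 and -0.03 for Galr1.

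**Figure D4:**
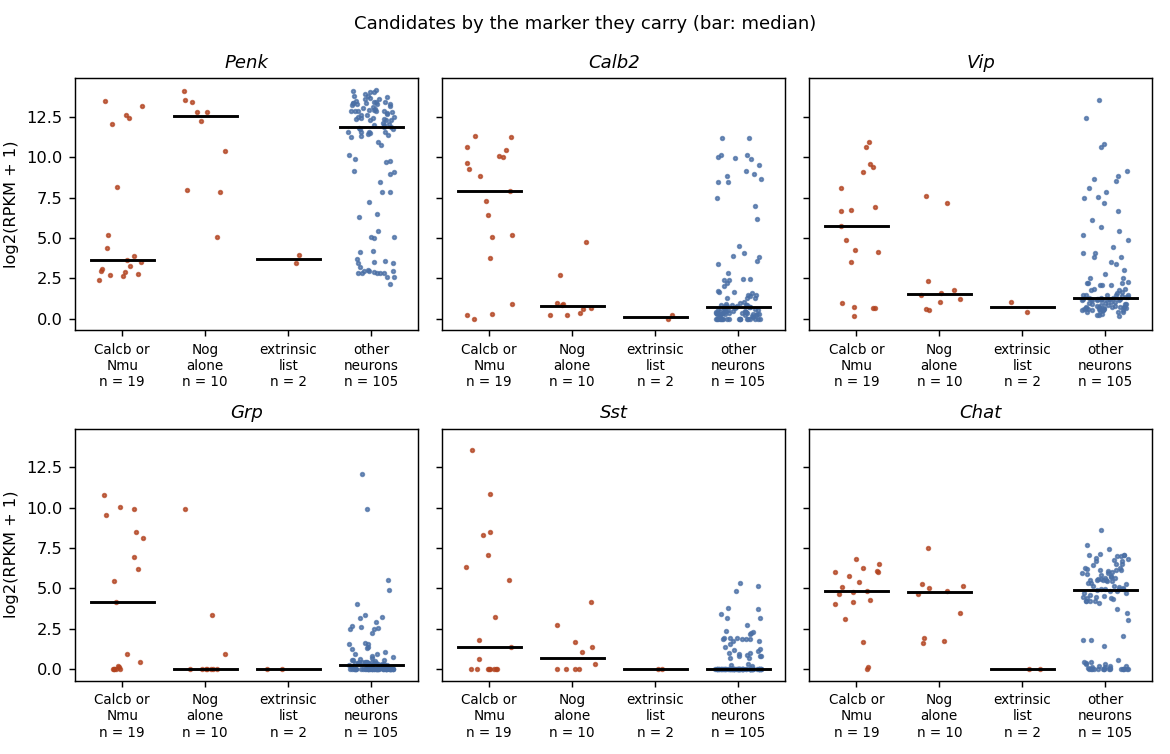
Levels of 6 genes as log2(RPKM + 1), 1 point per cell, in 19 Calcb or Nmu cells without Nog, 10 Nog cells, 2 cells with extrinsic sensory genes and the other neurons, with a bar at the median. Penk medians are 3.65, 12.5, 3.71 and 11.9 in that order, and Calb2 medians 7.92, 0.79, 0.13 and 0.73.

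The 6 neurons with both Calcb and Nmu shared many of these genes. All 6 had Calb2, Vip, Chat, Scgn, Galr1, Zdhhc12 and Cd59a at 3 or more. Penk was between 2.73 and 3.49 in them, and 1 of 6 had Nos1. Anxa1 had a median of 8.75 and Grp of 8.30, but each reached 3 in 4 of 6. Cck reached 3 in 3 of 6. The second cell of an alike pair, cell 36 of plate 3, had Nmu at 2.81 and so was not among them, although its partner, cell 5, was.

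Vip was found with Chat and without Nos1 in 10 of 19 Calcb or Nmu cells, 2 of 10 Nog cells and 10 other neurons (9.52%). Vip with Nos1 is the usual pairing in inhibitory motor neurons of the gut. For the class as a whole Vip differed by 3.53, -0.40 and 1.93 and was not called, the plate 2 sign being opposite. On plate 2 it reached 3 in 2 of 8 candidates and 10 of 30 other neurons.

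Markers of other cell types moved with the classes on single plates. At least 50% of 6 epithelial genes were at 3 in 5 of 16 candidates of plate 1 and in 1 of 33 other neurons of that plate, and in no candidate of plates 2 and 3, against 2 of 30 and 1 of 42 other neurons there. The summed epithelial level ranged from 0 to 3200 RPKM in candidates and from 0 to 3490 RPKM in other neurons. Of those 5 candidates, 4 were the alike pairs 20 with 50 and 31 with 39. With these neurons left out of both classes 24 genes were higher and 8 lower, and Penk, Plaur and Kctd10 were no longer called. At least 50% of 10 smooth muscle genes were at 3 in 3 of 32 candidates (9.38%) and 15 other neurons (14.3%), with summed levels of 1.25 to 947 RPKM in candidates and 1.33 to 36000 RPKM in other neurons. Glial, fibroblast, endothelial, leukocyte, interstitial and mesothelial lists had at least 50% of their genes at 3 in at most 2 candidates each and at most 4 other neurons each. Summed levels below that bar still moved with the class on single plates. On plate 1 the median summed glial level was 46.1 RPKM in candidates and 6.01 RPKM in other neurons, and the fibroblast level 8.62 RPKM in candidates and 0.703 RPKM in other neurons. On plate 2 the leukocyte level was 20.4 RPKM in candidates and 2.86 RPKM in other neurons. The median differences of the kept genes on plates 1, 2 and 3 were 0.77, -0.27 and -0.22 for 4 glial genes, and 1.20, 0.04 and 0.09 for 2 fibroblast genes. Each gene of the 8 lists was above 0 in some candidate. None was called. With neurons carrying another cell type's list left out, 12, 8 and 7 candidates and 31, 22 and 35 other neurons remained by plate. Then 22 genes were higher and 13 lower, and 12 of the 18 and 5 of the 7 were shared. Basp1 (0.85), Capn5 (0.94), Igsf8 (0.96), Plaur (0.94) and Kctd10 (0.86) were no longer called. The part of attached cells in these differences was not tested.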

How the data were processed

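Single picked cells were sequenced on 3 plates with a kit that adds a barcode per well and a second one per plate, per the labels' protocols, and no molecular identifiers are described, so reads rather than molecules underlie each value. The authors deposited 1 table of log2 values, log2(RPKM + 1), for 49492 gene rows and 204 cells. That the base is 2 and 1 was added follows from the values themselves. The submitters' processing notes name mm10. No aligner, read counter or strandedness is given in the sources used here, so overlapping genes on opposite strands may share reads. Deposited files of single cells, which repeat columns of that table, were not used.

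The values were used as deposited. Whole reads were recovered from them for depth and thinning only. With GENCODE M21 exon lengths for 31338 genes and the smallest fitting length for 6297, 100.0% of 2375655 values above 0 came out whole, within 0.01 of a read plus 1e-06 of the reads. Cells held 452928 to 14310502 reads, with medians of 3445498, 4571296 and 4690978 on plates 1, 2 and 3, and low genes are the least precise.

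The threshold of 1 on every plate, the filter (mean of at least 0.5) and the exclusion of the 3 marker and 5 neuron genes were applied to all genes. The filter took in both classes, so a gene could pass through the class where it was high. With no filter 19 genes were higher, the 18 among them, and the same 7 lower. Differences on this scale understate those of low genes. A plate needed at least 5 cells of each class. The gene steps were tested on simulated cells drawn around a pooled profile, without cell types, plate effects or alike pairs. That test checks the steps and cannot tell how many of the calls made here are false. Named genes are, per direction, up to 12 called genes by smallest plate difference that reached 3 in at least 40% of the higher class's cells on each plate, leaving out mitochondrial, ribosomal, Rik, Gm and unnamed entries; up to 4 members of each of 30 gene lists with 1 sign on all plates; and Slc17a6, Chat, Nos1 and Tac1. Vip, the counts of Galr1 by marker, Calca, Nefm, Anxa1, Kcnip4 and other list members were added after their values were seen. The class, its markers and the lists were chosen with earlier results of these data known. No doublet caller was run on these hand-picked cells. Python 3.11.15, numpy 2.4.6, pandas 2.3.3, scipy 1.17.1 and matplotlib 3.10.9 were used. Alternatives changed the added constant, filter, marker and neuron thresholds, markers, plates, cells and depth.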

Additional observations from a re-analysis of the deposited data

Results flagged for a closer look

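Of 34 groups of 8 candidates tested, 4 held a cell far from the rest. The test flags about 1 in 20 groups by chance where values are independent and normally spread. Levels in single cells are often near 0 or high, and 1 cell gave 3 of the 4 flags. The count can therefore not be read against that rate. On plate 3, cell 63 was lowest for 3 genes. Its Basp1 was at 0.06, with the next candidate at 4.10, its Capn5 at 1.83, with the next at 3.71, and its Chat at 0.12, with the next at 3.49. This cell was a candidate by Nmu alone and held Nos1 at 6.53. On plate 2, cell 27 was highest for Tac1 at 9.09, with the next candidate at 3.76.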

How the results depend on the processing

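No paired analysis was possible because the numbers in the labels only number cells within a plate. The share of the 14937 genes called higher and lower, 0.121% and 0.0469% as reported, and the 8 called list genes moved by over 1.5 times as follows. Adding 0.1 RPKM gave 0.931% and 0.194%, and adding 5 RPKM gave 0.0402%, 0.0134% and 5 list genes. The ratio of mean RPKM gave 0.355% lower. Markers at 4 or more gave 0.509% and 0.301%, over plates 1 and 2, and markers at 2 or more gave 11 neurons with 2 or more markers, against 6. Calcb alone gave 2.42%, 0.261% and 31 list genes, Nmu alone 4.12%, 0.449% and 31, Nog alone 0.944%, 0.596% and 5, and at least 2 of 3 markers 6.07%, 0.536% and 46, each over 2 plates. Leaving out neurons with another cell type's list gave 0.087% lower. Chat neurons gave 0.187% higher, and neurons with Nos1 below 1 gave 0.743%, 1.04% and 25, over 2 plates. Leaving out plate 1 gave 0.944%, 0.174% and 15, plate 2 gave 1.43% higher and 19 list genes, and plate 3 gave 0.281%, 0.174% and 13. A size of 1.5 gave 0.0268%, 0.0134% and 2. Chosen after seeing the data, differences relative to the plate's all-gene median gave 0.0736% lower, and leaving out the alike and the extrinsic-gene cells gave 0.0268% lower. Leaving out single cells gave 0.0937 to 0.181% higher, 0.0268 to 0.0603% lower and 6 to 9 list genes. With the same cells, a call over fewer plates passes at least as many genes by construction and a size of 1.5 at most as many; other causes were not tested. Signs turned on at least 1 plate for Plaur (-0.51) and Penk (0.27) with the ratio of mean RPKM. By Nog alone, signs turned on 1 of 2 plates, plate 1 for Scgn (-0.10) and Grp (-0.66) and plate 2 for Calb2 (-0.28), Penk (2.19) and Galr1 (-0.04), while the other plate kept the sign. On at least 1 plate, Scgn turned in Chat neurons (-0.18), and Scgn (-0.15) and Pdyn (-0.04) did with Nos1 below 1.

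Depth limits the low genes most. Candidates of plate 2 were the shallowest class, and plates 2 and 3 had 8 candidates each, so a single cell moves their means. The labels name no animal, so spread between animals is unknown.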
